A study of Mus musculus with 6 samples.

Results

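The genes described here encode the proteins of the cytosolic ribosome, measured in the colon of mice lacking the histone deacetylases HDAC1 and HDAC2 in intestinal epithelial cells (IEC). A gene was a member when a probe set carried its symbol alone and the symbol was Rpl or Rps followed by a number, Rpsa, or Rplp0 to Rplp2, with the Rps6ka and Rps6kb kinases left out. The rule found 53 genes of 18193 named genes, on 109 probe sets, and each gene was read from the brightest of its probe sets, by the mean of the 6 arrays. Of the 53, 43 encode structural proteins of the ribosome (22 of the large and 21 of the small subunit, from a written list of 78), 5 encode paralogs, 4 encode proteins that only share the name, and 1 is annotated as a pseudogene. Microarrays of total colon RNA were prepared from 3 HDAC1/2 deficient and 3 control mice, and by the source names each array had a mouse of its own. The deficient mice carried floxed Hdac1 and Hdac2 alleles and a villin-Cre transgene, whose promoter is active in the intestinal epithelium, so other cells of the colon wall keep both genes. The controls were labelled wild type, no mouse was treated, and all were 4 months old. The labels name colonic epithelium as the source, whereas the extraction protocol describes the whole colon.

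A ribosome consists of a small subunit, which reads the mRNA, and a large subunit, which joins amino acids, and each holds its own ribosomal RNA and a set of proteins needed in matched amounts. The mRNAs of these proteins begin with a run of pyrimidines, the 5′ terminal oligopyrimidine (TOP) motif, through which mTOR signaling sets their translation. Assembly takes place in the nucleolus, and dividing crypt cells renew the colonic epithelium and need new ribosomes for it.

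Both targeted genes were checked first. Hdac1 measured 9.27, 9.21 and 9.32 in the deficient arrays, against 10.60, 10.53 and 10.56 in the control arrays (log2 signal), a log2 fold change of -1.30 (standard error (SE) 0.0466, limma adjusted p = 1.06e-06). Hdac2 measured 11.02, 10.92 and 11.00, against 10.96, 10.92 and 10.93, a difference that did not pass (log2 fold change 0.046, limma adjusted p = 0.475). At the protein level, the study reported depletion of both in enriched epithelial cells, with patchy HDAC2 left by immunofluorescence. Every array had nearly the same centre, with medians of 6.78 to 6.81 on a scale that ran from 2.79 to 14.85. All fold changes below are deficient minus control on this log2 scale, and a gene was called at a limma adjusted p under 0.05 over all probe sets. The groups differed widely in these arrays: 50.4% of the named genes were called. The Y-linked gene Eif2s3y measured 8.32, 8.49 and 8.22 in deficient arrays, against 3.84, 4.31 and 4.11 in control arrays, and Xist, transcribed from the inactive X of females, measured 12.01, 11.99 and 12.06, against 12.88, 12.85 and 12.81. Each deficient array thus held both at a high level, where RNA of a single mouse would hold only 1 of the pair, which goes against the numbering of a mouse for each array. Whether RNA was pooled is not given in the sources used here, so the p-values measure the spread between these arrays, which may be technical. Genotype and sex cannot be told apart.

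Most genes of the cytosolic ribosome sat at the top of the scale and moved little. Of the 53 members, 5 were higher in the deficient colon (background over all named genes 21.9%), 11 were lower (background 28.4%) and 37 did not pass the test. On its chosen probe set no member changed by 2-fold, although a dimmer Rpl7l1 probe set did (log2 fold change -2.18). Without deficient array 3, and likewise without control array 1, 7 members were lower. Both shares were below the background in this fit, but the lower share was above it under other variance models (23 of 53 against 30.3% with a trended prior). Among the 43 structural genes, 2 were higher, 9 were lower and 32 did not pass, with fold changes of -0.20 to 0.38 (0.30 without Rps16, whose probe set lay near the bottom of the scale) and a median of -0.070, against -0.022 over all named genes. In bulk RNA, fewer cells of a type and less RNA per cell cannot be told apart. When the arrays were scaled otherwise, the median of the structural genes was -0.026 after a second quantile normalization and -0.034 after centring on bright probe sets. Both are nearer to the -0.022 that all named genes had before this scaling.

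**Figure D1:**
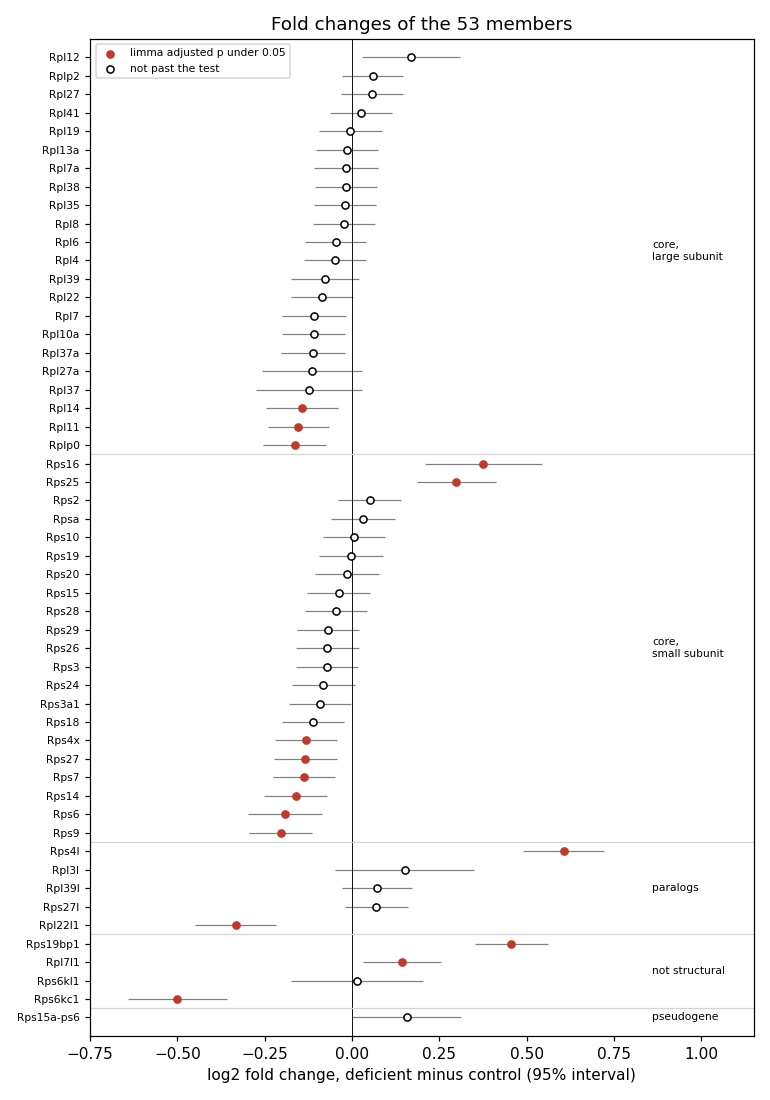
Log2 fold change (deficient minus control) of the 53 members with its 95% interval, grouped by class from structural genes of the large subunit at the top to the pseudogene at the bottom, with filled points past a limma adjusted p of 0.05. Structural genes lie between -0.20 and 0.38, while Rps4l reaches 0.61 and Rps6kc1 -0.50.

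Of the 43 structural genes, 34 averaged 13 or more, between 13.67 and 14.62, all at or above the 99.3rd percentile of all probe sets. None of these 34 was higher, 6 were lower (17.6%, below the background of 28.4%) and 28 did not pass, and the fold changes ran from -0.20 to 0.059 with a median of -0.048, which is 3.26% lower. The median of the 34 was 14.16, 14.18 and 14.17 in the deficient arrays, against 14.27, 14.26 and 14.26 in the control arrays. Other summaries lay closer together. The mean of the 34 was 14.166, 14.172 and 14.161, against 14.225, 14.222 and 14.223. The median of all 43 structural genes was 14.120, 14.121 and 14.101, against 14.127, 14.130 and 14.137. By each summary all 3 deficient arrays were below all 3 control arrays. The mean was lower in the deficient colon for 28 of the 34 genes. In 22 of the 34 every deficient array was below every control array (background 34.1%), and in 4 every deficient array was above (background 26.9%), where 60.9% of all named genes had groups that did not overlap. The other 298 named genes at this level were spread more widely, from -1.06 to 1.84 with a median of 0.0065, and 89 were higher and 92 lower. In 129 of these 298 every deficient array was below every control array, and in 131 every deficient array was above. The cut at 13 was set after the values were seen, and near the top of the scale an array can compress differences.

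**Figure D2:**
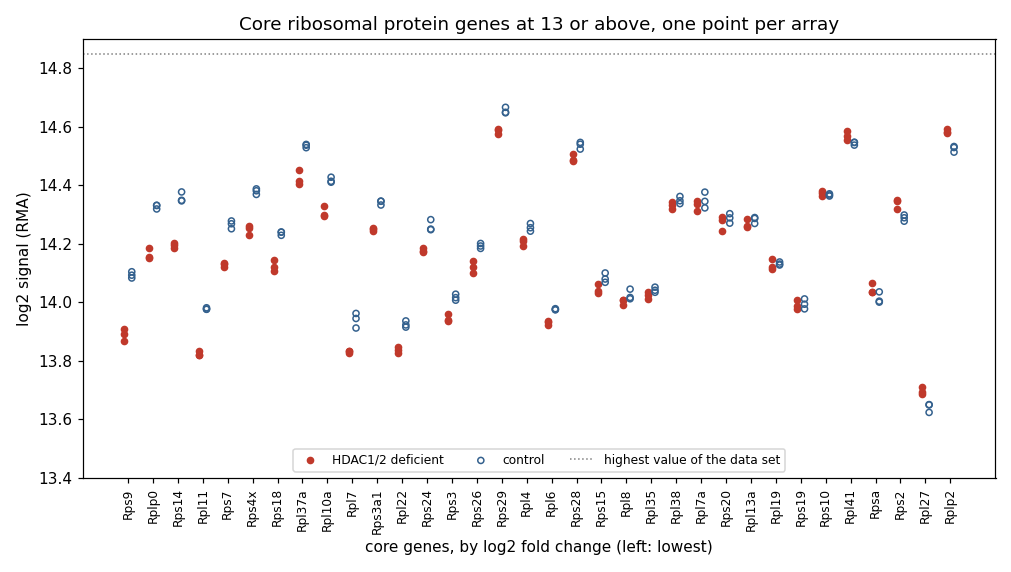
Log2 signal of the 34 structural genes that average 13 or more, with 1 point per array, filled for HDAC1/2 deficient and open for control, ordered by fold change. The filled points lie below the open ones for most genes on the left, by at most 0.20, and the axis spans only the top of the scale, whose highest value of 14.85 is dotted.

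The arrays agreed closely on these 34 genes, with SDs of 0.0020 to 0.0271 within a group. limma shares one prior variance over all probe sets, and the SEs of these 34 genes had a median of 0.0382. When the prior could follow the signal level and was fitted robustly, the median SE was 0.0158, 19 of the 34 genes were lower and 3 higher, and all 6 genes of the first count were among the 19. Over the 53 members this fit called 23 lower and 9 higher, with 9 large subunit and 12 small subunit genes lower. The background was then 30.3% lower and 23.7% higher. For the 28 genes that did not pass in the fit with a single prior, the 95% limits ran from -0.203 to 0.147.

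**Figure D3:**
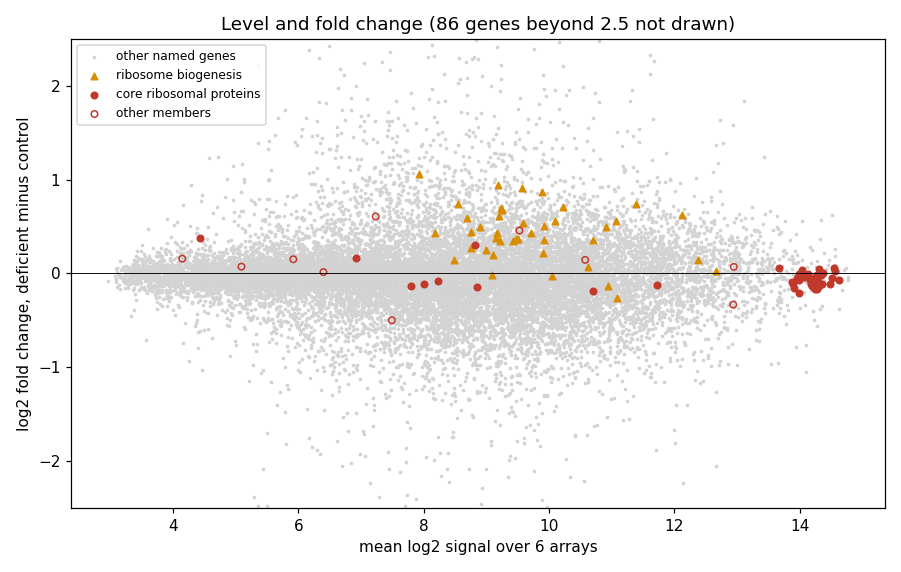
Mean log2 signal over 6 arrays against log2 fold change (deficient minus control) for every named gene in grey, structural ribosomal protein genes as filled circles, other members as open circles and ribosome biogenesis genes as triangles; 86 genes beyond 2.5 are not drawn. Most structural genes form a narrow band at the right edge around and below 0, and most biogenesis genes lie above 0 at middle levels.

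In the large subunit, 3 of 22 genes were lower (background 28.4%), none was higher (background 21.9%), and the median was -0.048. Rplp0, the base of the stalk that recruits translation factors, measured 14.15, 14.18 and 14.15 in the deficient arrays, against 14.32, 14.33 and 14.33 in the control arrays. Every deficient array was below every control array, and the log2 fold change was -0.16 (SE 0.0383, limma adjusted p = 0.0107). Rpl11, which binds 5S ribosomal RNA and inhibits Mdm2 when ribosome assembly is disturbed, measured 13.83, 13.82 and 13.82, against 13.98, 13.98 and 13.98 (log2 fold change -0.15, SE 0.0374, limma adjusted p = 0.0129). The replicates of Rpl11 differed by far less than the groups. Rpl14 measured 8.82, 8.75 and 8.77, against 8.97, 8.92 and 8.89 (log2 fold change -0.14, limma adjusted p = 0.0334), and its call was lost when deficient array 2 or 3 or control array 1 or 2 was left out. Rplp2, a stalk protein that Rplp0 anchors, measured 14.58, 14.59 and 14.58, against 14.51, 14.53 and 14.53, a difference that did not pass (log2 fold change 0.059, limma adjusted p = 0.266). It passed under the trended prior (limma adjusted p = 0.00288). The 2 stalk genes therefore stood on opposite sides of 0, although the difference between them was not tested. Their partner Rplp1 had no probe set of its own under the rule. Rpl41, which encodes the smallest ribosomal protein, was among the 3 brightest structural genes, at 14.58, 14.57 and 14.56, against 14.54, 14.55 and 14.55 (log2 fold change 0.026, limma adjusted p = 0.636). A dim Rpl41 probe set was higher, at 5.49, 5.68 and 5.52, against 5.29, 5.19 and 5.22 (log2 fold change 0.33, limma adjusted p = 0.00351).

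Just outside the threshold on their brightest probe sets were Rps18 of the small subunit and Rpl37a, Rpl10a and Rpl7 of the large one. Their log2 fold changes were -0.11 each, with limma adjusted p of 0.0523, 0.0547, 0.0550 and 0.0614. On dimmer probe sets Rpl37a was called lower, at -0.13 and -0.14 (limma adjusted p = 0.0281 and 0.0240). Rpl7 was called lower on a dimmer probe set (-0.13, limma adjusted p = 0.0270) but not on its dimmest (-0.096, limma adjusted p = 0.121). No dimmer Rps18 probe set passed, and Rpl10a had only 1 probe set. Rpl12, part of the base of the stalk with Rplp0, was read from one of the dimmest probe sets chosen for structural genes. It had the highest fold change of its subunit. It measured 6.92, 7.08 and 7.02 in deficient arrays, against 6.76, 6.84 and 6.92 in control arrays (log2 fold change 0.17, limma adjusted p = 0.0611). The groups did not overlap, but deficient array 1 and control array 3 nearly met, and Rpl12 gained the call without either of these arrays (limma adjusted p = 0.0398 and 0.0447) and under 4 other alternatives (0.0337 to 0.0424). At the other end of the test, Rpl19 measured 14.12, 14.15 and 14.11, against 14.13, 14.13 and 14.14 (log2 fold change -0.0047, limma adjusted p = 0.939).

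In the small subunit, 6 of 21 genes were lower, about the background share of 28.4%, 2 were higher (background 21.9%), and the median was -0.071. Without deficient array 1, deficient array 3 or control array 1, the lower genes numbered 3. Rps9, which takes part in decoding accuracy, measured on its brightest probe set 13.89, 13.91 and 13.87 in deficient arrays, against 14.09, 14.10 and 14.08 in control arrays. This was the largest fall among the 34 genes at 13 or more, a log2 fold change of -0.20 (SE 0.0386, limma adjusted p = 0.00393) or 13.2% lower. Rps14, whose human counterpart is the gene behind the anemia of the 5q- syndrome, measured 14.19, 14.20 and 14.20, against 14.35, 14.35 and 14.38 (log2 fold change -0.16, SE 0.0382, limma adjusted p = 0.0114). Both genes showed no overlap between groups. Rps7 and Rps4x were lower too, with log2 fold changes of -0.14 and -0.13 (limma adjusted p = 0.0227 and 0.0273). Rps4x lies on the X chromosome, and Xist averaged 12.02 ± 0.0333 in deficient and 12.85 ± 0.0340 in control arrays (SD, n = 3 each), so the part of sex in the value of Rps4x cannot be told apart from that of genotype.

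Rps6, the substrate of S6 kinase whose phosphorylation is read as a mark of mTOR activity, averaged 10.71, the 91.0th percentile of all probe sets. It measured 10.65, 10.56 and 10.62 in deficient arrays, against 10.78, 10.78 and 10.85 in control arrays, and was lower (log2 fold change -0.19, SE 0.0455, limma adjusted p = 0.0114). A second Rps6 probe set ran the same way without passing the test, at 6.42, 6.42 and 6.36, against 6.52, 6.52 and 6.50 (log2 fold change -0.11, limma adjusted p = 0.0649). The array measures mRNA, and phosphorylation was not part of it. Rps29 was the brightest structural gene, at 14.59, 14.59 and 14.57, against 14.67, 14.65 and 14.65, a difference that did not pass (log2 fold change -0.070, limma adjusted p = 0.195). It passed under the trended prior (limma adjusted p = 0.000786). Rpsa, which also serves as a laminin receptor, measured 14.03, 14.07 and 14.03, against 14.00, 14.00 and 14.04 (log2 fold change 0.032, limma adjusted p = 0.576), with groups that overlapped. Rps10, on its brightest probe set, and Rps19 had log2 fold changes of 0.0055 and -0.0030. The other Rps10 probe sets ran below 0, from -0.13 to -0.021, and the lowest of them was called (limma adjusted p = 0.0315).

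The 9 structural genes below 13 included the 2 that were called higher. Their level is that of the chosen probe set, and probe sets with several symbols were not used. Of these 9, 2 were higher (22.2%, background 21.9%), 3 were lower (33.3%, background 28.4%) and 4 did not pass, shares close to the background. Rps25, required by several viral internal ribosome entry sites, measured 8.971, 9.003 and 8.949 in deficient arrays, against 8.614, 8.665 and 8.748 in control arrays (log2 fold change 0.30, SE 0.0485, limma adjusted p = 0.00178). Rps16 measured 4.65, 4.52 and 4.70, against 4.21, 4.37 and 4.16 (log2 fold change 0.38, SE 0.0721, limma adjusted p = 0.00417). The Rps16 probe set was at the 11.4th percentile of all probe sets, near the bottom of the scale. A filter at the 40th percentile removes it and leaves 1 small subunit gene higher. The files used here hold no detection call, so whether this probe set was above background is not known. Rps27, at 7.73, 7.71 and 7.74, against 7.87, 7.84 and 7.86, was lower (log2 fold change -0.13, limma adjusted p = 0.0274), but lost the call when any array other than control array 2 was left out.

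The regions around the transcription start were examined because the structural genes are known for the TOP motif and moved within a narrow range. RefSeq promoters (GRCm38.p6, 250 bases before to 50 after each start) were matched for 38 of the 43 structural genes, as 44 promoters. Within 25 bases on each side of the start, the longest unbroken run of C and T had a median of 7 bases in structural genes and 5 in all 32851 promoters, and reached 8 or more in 45.5% and 19.7% of them. The letters CTTTC on the transcript strand occurred in this window in 25% of the structural and 6.75% of all promoters, while their reverse complement GAAAG occurred in 6.82% and 6.1%. Genes that fell and genes that did not pass the test both carried such runs, as these windows show with the longest run in capitals, read 5′ to 3′ along the transcript. The first 4 genes were lower and the next 3 did not pass.
Rps9, chr7:3704016-3704065, plus strand: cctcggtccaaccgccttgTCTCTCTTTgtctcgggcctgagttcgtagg
Rps6, chr4:86857343-86857392, minus strand: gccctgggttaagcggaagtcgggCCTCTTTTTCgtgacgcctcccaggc
Rps27, chr3:90213624-90213673, minus strand: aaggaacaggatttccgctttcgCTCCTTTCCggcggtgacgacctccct
Rpl14, chr9:120571492-120571541, plus strand: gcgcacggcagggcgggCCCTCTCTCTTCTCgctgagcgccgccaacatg
Rps10, chr17:27635220-27635269, minus strand: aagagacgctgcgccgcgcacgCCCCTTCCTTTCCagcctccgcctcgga
Rplp2, chr7:141447626-141447675, plus strand: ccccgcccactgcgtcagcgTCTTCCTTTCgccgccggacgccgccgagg
Rpl35, chr2:39005107-39005156, minus strand: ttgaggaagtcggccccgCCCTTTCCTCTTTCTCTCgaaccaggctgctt

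The letters CCGGAAG, the core that ETS-family factors bind, were searched on both strands of the full 300 bases. They occurred in 43.2% of the structural and 8.86% of all promoters. GGGCGG, the GC box, occurred in 54.5% and 35.7%, CACGTG, the E-box bound by Myc and Max, in 11.4% and 7.15%, and TATAAA, a form of the TATA box, in 11.4% and 13.6%, each on both strands. These are matches of letters and no measure of binding. The match stood close to the start in genes that were lower (Rps7 and Rpl11) and in genes that did not pass the test (Rps3a1, Rpl38 and Rpl6), with CCGGAAG or its reverse complement in capitals in the same 50-base window.
Rps7, chr12:28635929-28635978, minus strand: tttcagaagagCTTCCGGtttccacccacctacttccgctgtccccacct
Rpl11, chr4:136053369-136053418, minus strand: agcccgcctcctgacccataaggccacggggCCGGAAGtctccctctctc
Rps3a1, chr3:86142644-86142693, minus strand: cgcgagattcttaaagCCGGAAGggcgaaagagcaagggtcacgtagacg
Rpl38, chr11:114668555-114668604, plus strand: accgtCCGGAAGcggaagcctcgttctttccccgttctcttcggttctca
Rpl6, chr5:121204476-121204525, plus strand: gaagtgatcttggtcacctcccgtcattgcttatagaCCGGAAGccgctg

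Paralogs of structural genes held the largest rise of the set. Of the 5 measured, of 11 written, 1 was higher (background 21.9%), 1 was lower (background 28.4%) and 3 did not pass. Rps4l, an autosomal relative of Rps4x, measured 7.56, 7.55 and 7.51 in deficient arrays, against 6.96, 6.85 and 6.98 in control arrays (log2 fold change 0.61, SE 0.0497, limma adjusted p = 5.13e-05). Rpl22l1, the relative of Rpl22, measured 12.77, 12.70 and 12.84, against 13.07, 13.12 and 13.13 (log2 fold change -0.33, SE 0.0497, limma adjusted p = 0.00116). Groups did not overlap for either gene. Rpl22 itself measured 13.85, 13.84 and 13.83, against 13.94, 13.92 and 13.91, a difference that did not pass (log2 fold change -0.087, limma adjusted p = 0.114). It passed under the trended prior (limma adjusted p = 0.000376). Rps27l, a p53-responsive relative of Rps27, measured 12.98, 12.96 and 13.01, against 12.91, 12.92 and 12.91 (log2 fold change 0.070, limma adjusted p = 0.206). Rpl39l and Rpl3l, known mainly from testis and from striated muscle, had log2 fold changes of 0.072 and 0.15 and did not pass (limma adjusted p = 0.236 and 0.211).

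The 4 non-structural members carry a ribosomal protein name without being part of the ribosome, and 3 of them were called (background 50.4%). Rps19bp1, which encodes a nucleolar binding partner of RPS19 that activates the deacetylase SIRT1, measured 9.78, 9.75 and 9.73 in deficient arrays, against 9.35, 9.25 and 9.30 in control arrays (log2 fold change 0.46, SE 0.0443, limma adjusted p = 0.00012). Rps6kc1, a kinase-like protein that binds sphingosine kinase, measured 7.17, 7.20 and 7.35, against 7.81, 7.70 and 7.73 (log2 fold change -0.50, SE 0.0605, limma adjusted p = 0.000389). On the chosen probe sets these were the second largest rise and the largest fall among the members, and the groups did not overlap for either gene. Rpl7l1, named for its likeness to Rpl7, was higher by 0.14 (limma adjusted p = 0.0456) on its brightest probe set, at 10.64, 10.71 and 10.59, against 10.54, 10.50 and 10.48, and the call was lost when any array other than deficient array 3 was left out. Rps6kl1, a kinase-like relative, measured 6.22, 6.50 and 6.50, against 6.45, 6.39 and 6.34, with a log2 fold change of 0.013 (limma adjusted p = 0.917). The pseudogene Rps15a-ps6 had a log2 fold change of 0.16 and did not pass (limma adjusted p = 0.105).

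For 24 members more than 1 probe set carried the symbol, and in 14 of them every probe set had a fold change of the same sign. The 3 widest disagreements were in Rpl7l1, Rps9 and Rpl22. The dimmest of 3 Rpl7l1 probe sets measured 5.90, 5.82 and 5.83 in deficient arrays, against 8.04, 7.96 and 8.09 in control arrays, a log2 fold change of -2.18 (SE 0.0501, limma adjusted p = 1.29e-07) where the brightest was at 0.14. The gene therefore has no settled direction. Rps9 was lower on its bright probe sets, at -0.20 and -0.42, but higher on a probe set near the bottom of the scale, with 5.311, 5.384 and 5.408 in deficient arrays, against 4.899, 5.002 and 4.960 in control arrays (log2 fold change 0.41, SE 0.0484, limma adjusted p = 0.000323). For Rpl22 all 3 ran downward, and the dimmest measured 9.92, 9.90 and 9.87, against 10.68, 10.59 and 10.61 (log2 fold change -0.73, SE 0.0439, limma adjusted p = 1.18e-05), a far larger difference than that of the brightest (-0.087). The files used here do not say which transcripts each probe set reads. Of the 53 chosen probe sets, 16 carry the maker's suffix _x_at or _s_at, for probes that may also match other sequences.

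**Figure D4:**
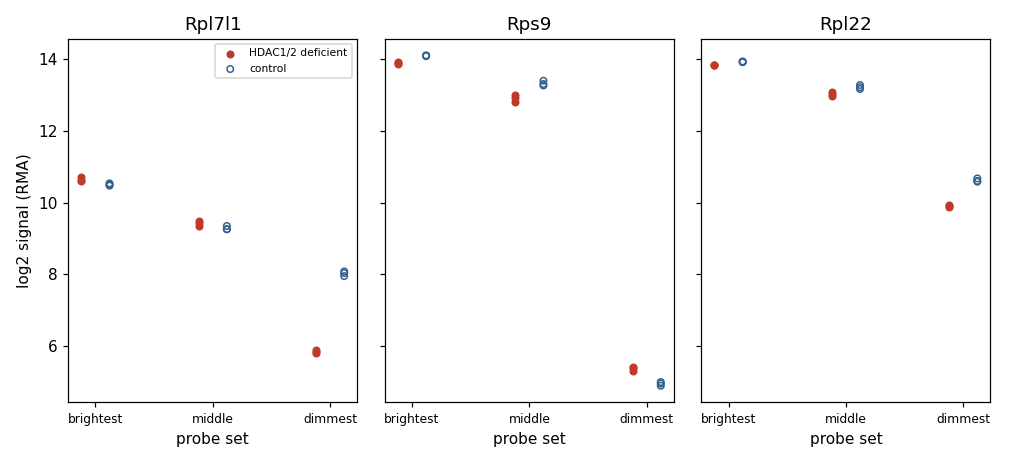
Log2 signal of the 3 probe sets of Rpl7l1, Rps9 and Rpl22, ordered from the brightest to the dimmest, with 1 point per array, filled for HDAC1/2 deficient and open for control. The dimmest Rpl7l1 probe set lies near 6 in deficient and near 8 in control arrays while its brightest differs by 0.14, and the dimmest Rps9 probe set runs opposite to the bright ones.

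Most genes of ribosome assembly were higher in the deficient colon. Of 41 measured ribosome biogenesis genes (of 42 written), 34 were higher (background 21.9%), 2 were lower (background 28.4%) and 5 did not pass, with a median of 0.43. Rrp12, known in yeast for the export of both preribosomal subunits, measured 8.44, 8.52 and 8.43 in deficient arrays, against 7.45, 7.37 and 7.39 in control arrays (log2 fold change 1.06, SE 0.0466, limma adjusted p = 2.69e-06). Utp15 and Nolc1, of the small subunit processome and the nucleolus, were higher by 0.95 and 0.91 (limma adjusted p = 3.5e-06 and 3.61e-06). Fbl, the methyltransferase that modifies ribosomal RNA, had a log2 fold change of 0.62, whereas Ncl had one of 0.024 and did not pass. The genes of this list that fell were Tsr1 (-0.26) and Imp3 (-0.14), named here for being only 2. The difference between this list and the structural genes was not tested as lists, since genes of a list are not independent samples.

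Mitochondrial ribosomal proteins, which serve the separate ribosome of the mitochondrion, were more often higher than lower. Of 76 genes, 42 were higher (background 21.9%), 9 were lower (background 28.4%) and 25 did not pass, with a median of 0.15. Mrps7 measured 10.51, 10.59 and 10.50 in deficient arrays, against 9.83, 9.82 and 9.87 in control arrays (log2 fold change 0.69, SE 0.0451, limma adjusted p = 1.7e-05), and Mrpl16 was higher by 0.68 (limma adjusted p = 1.49e-05). Mrps33 went the other way, at 10.03, 10.05 and 10.03, against 10.79, 10.74 and 10.70 (log2 fold change -0.71, SE 0.0428, limma adjusted p = 1.17e-05). No mitochondrial member reached 2-fold.

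**Figure D5:**
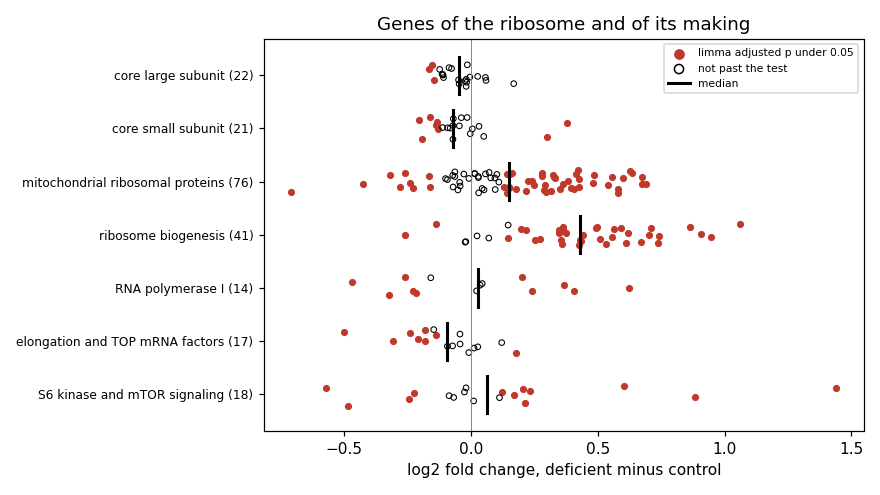
Log2 fold change (deficient minus control) of each gene in 7 lists, with 1 point per gene, filled past a limma adjusted p of 0.05, a bar at each list's median and the number of genes in brackets. The 2 subunits of the cytosolic ribosome sit in a narrow band with medians of -0.048 and -0.071, while the biogenesis genes spread from -0.26 to 1.06.

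Other genes whose mRNAs carry a TOP motif, or whose proteins elongate the peptide chain, were more often lower than higher, as were named genes in general. Of 17 measured (of 18 written), 1 was higher (background 21.9%), 7 were lower (background 28.4%) and 9 did not pass, and the median was -0.093. Eif4b, a helper of the Eif4a helicase, measured 12.01 ± 0.0111 in deficient arrays, against 12.51 ± 0.0279 in control arrays (SD, n = 3 each), with a log2 fold change of -0.50 (SE 0.0394, limma adjusted p = 4.26e-05). Eef2, which moves the ribosome along the mRNA, measured 13.51, 13.51 and 13.49, against 13.79, 13.84 and 13.79 (log2 fold change -0.31, SE 0.0395, limma adjusted p = 0.000551), and Hnrnpa1 fell by 0.24 (limma adjusted p = 0.0051). Eef1a1, which delivers aminoacyl-tRNA, had a log2 fold change of -0.043 and did not pass. Fau, which encodes the small subunit protein RPS30 outside the naming rule, had a log2 fold change of -0.078 (limma adjusted p = 0.149), inside the range of the structural genes.

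RNA polymerase I, which transcribes ribosomal RNA, had 5 of 14 genes higher (background 21.9%), 5 lower (background 28.4%) and 4 that did not pass, with a median of 0.029. Polr1e measured 8.62, 8.50 and 8.59 in deficient arrays, against 7.98, 7.96 and 7.90 in control arrays (log2 fold change 0.62, SE 0.0497, limma adjusted p = 4.58e-05), and the initiation factor Rrn3 was higher by 0.41 (limma adjusted p = 0.00032). Taf1d, of the promoter selectivity factor, fell by 0.47 (limma adjusted p = 0.000194), but a dimmer probe set of the same gene was higher by 0.57.

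Among 18 measured genes of S6 kinase and mTOR signaling (of 23 written), 8 were higher (background 21.9%), 4 were lower (background 28.4%) and 6 did not pass. Eif4ebp1, which encodes the cap-binding inhibitor that mTOR inactivates, measured 11.21, 10.98 and 11.16 in deficient arrays, against 9.70, 9.62 and 9.71 in control arrays (log2 fold change 1.44, SE 0.0667, limma adjusted p = 3.38e-06). The cap-binding protein that it inhibits, Eif4e, was higher by 0.60 on its brightest probe set (limma adjusted p = 2.34e-05) but by 0.067 on a dimmer one (limma adjusted p = 0.353), and the kinase Rps6ka6 by 0.88 (limma adjusted p = 6.97e-05). Mtor had a log2 fold change of 0.23, and Rictor and Mlst8, of its complexes, had -0.57 and -0.49. Larp1, the protein that binds TOP mRNAs, had a log2 fold change of 0.12, and Myc one of -0.24, all of them past the test.

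Marker mRNAs of several cell types differed between groups alongside these values. Beside the counts that follow, 21.9% of all named genes were higher and 28.4% were lower. Of the marker lists, 15 colon epithelium genes were mixed (4 higher, 5 lower, summed log2 levels 207.80 to 207.89 in deficient and 208.37 to 208.44 in control arrays), so epithelium was present in all arrays. Markers of B and plasma cells (8 of 8 higher, summed 77.04 to 77.61 in deficient and 67.32 to 67.96 in control arrays), T cells (7 of 8 higher, 60.08 to 60.34 in deficient and 53.44 to 53.85 in control arrays) and myeloid cells (8 of 9 higher, 83.39 to 83.52 in deficient and 71.05 to 71.44 in control arrays) were higher in the deficient colon. Smooth muscle markers were lower (8 of 8, 97.59 to 98.05 in deficient and 101.61 to 101.78 in control arrays), and pancreatic acinar markers were higher (7 of 7, 83.55 to 83.93 in deficient and 46.15 to 47.20 in control arrays). Cell cycle genes were higher in 16 of 17 cases with a median of 0.74, and Rrm2 had a log2 fold change of 1.65. Actin 3′ minus 5′ probe signal, a sign of RNA length, was 0.423 to 0.455 in deficient and 0.586 to 0.618 in control arrays. The same measure for Gapdh overlapped between groups, at -0.145 to -0.0939 in deficient and -0.0943 to -0.0017 in control arrays. The part of cell composition, RNA length or sex in the values of the ribosomal protein genes was not tested.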

How the data were processed

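The deposited table holds log2 expression values per probe set of the Affymetrix GeneChip Mouse Genome 430 2.0 array, which the authors background-corrected and normalized by RMA in Flexarray 1.6.1. RMA fits all arrays together and equalizes their distributions, so a shift shared by most genes is removed. After 64 control probe sets had been left out, a linear model of deficient against control without covariates was fitted to the remaining 45037 in limma (version 3.58.1, under R 4.3.3), using lmFit and eBayes, and p-values were adjusted by Benjamini-Hochberg across the whole table. The platform annotation assigns a single symbol to 34945 probe sets, several to 932 and no symbol to 9160, and a gene was never read from a probe set with several. Groups and replicate numbers came from the sample labels, whose source names number a mouse for each array. With 3 arrays a group, the number of arrays limits the precision, and p-values measure the spread between these arrays. No scan date or other batch is named in the sources used here. The script was tested on simulated data.

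The members and gene lists were chosen with earlier results of these data known. Named were Hdac1 and Hdac2, the 6 largest rises and falls past the threshold among structural genes, the 3 brightest and dimmest, Rps6, Rpsa and the stalk genes, every paralog and non-structural member, the 3 genes that moved most in each other list, and the 3 members whose probe sets disagreed most. Genes beyond that rule were named after their values were seen. The t-test of the methods, other variance models, scalings, filters and probe set choices, a replicate block and leaving out each array were run as alternatives.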

Additional observations from a re-analysis of the deposited data

How the results depend on the processing

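Over 18 alternatives, 1126 values for 63 named genes were computed, of which 1058 kept their direction and side of the threshold, 27 lost the call, 27 gained it and 14 changed sign. The counts of lower members depended most on the variance model. The methods' t-test, which lets the groups differ in variance, gave without adjustment 9 members higher and 25 lower, large subunit genes 2 and 9, 14 small subunit genes lower, and TOP and elongation factors 2 and 12. With Benjamini-Hochberg adjustment it gave 22 members lower, large subunit genes 2 and 8, 12 small subunit genes lower and 3 RNA polymerase I genes lower, and 17 lower and 2 higher among the 34 structural genes at 13 or more. The background of lower genes was 29.2% without and 22.1% with adjustment, so the lower share of the members was above it in both, as under the trended prior. The trended, robust prior gave 9 members higher and 23 lower, large subunit genes 2 and 9, 12 small subunit genes lower, and TOP and elongation factors 2 and 11. Under it Rps29, Rpl22 and Fau gained the call as lower (limma adjusted p = 0.000786, 0.000376 and 0.000619). Rplp2 and Rps27l gained it as higher (0.00288 and 0.00994), and Rps27 lost it (0.0554). The adjusted t-test of the methods also called Rps29, Rpl22, Fau and Rplp2, while Rpl7l1 lost its call there. After quantile normalization Rps29 passed too (limma adjusted p = 0.0496). Array weights gave 5 large subunit genes lower. Centring on bright probe sets gave 7 members, 3 small subunit and 1 biogenesis gene lower, 1 large subunit gene and 2 TOP and elongation factors higher, and a median of the structural genes of -0.034, against -0.026 after quantile normalization. Probe sets above the 40th percentile gave 17 members lower, large subunit genes 1 higher and 7 lower, 1 small subunit gene higher and 2 TOP and elongation factors higher. Without probe sets of shared sequence, large subunit genes were 1 higher and 5 lower, 1 biogenesis and 3 RNA polymerase I genes were lower, and the median was -0.058. The mean of a gene's probe sets gave large subunit genes 3 higher and 7 lower and 4 TOP and elongation factors higher. The dimmest probe set above the median gave 2 and 5, and 2. Leaving out 1 array at a time gave 7 to 9 members lower, 0 to 1 large subunit gene higher, 3 to 4 small subunit genes lower, 1 to 2 biogenesis genes lower, 2 to 4 S6 kinase and mTOR genes lower, and a median of the structural genes of -0.071 to -0.055. The fewest lower members and S6 kinase and mTOR genes came without deficient array 3 or control array 1, the fewest small subunit genes without either of these or deficient array 1, and the single biogenesis gene without any of these 3 or control array 3. The large subunit gene was higher without deficient array 1 or control array 3.

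Signs changed by the choice of probe set for Rps9 (0.41 without shared sequence), Taf1d (0.57 without shared sequence and on the dimmest probe set above the median), Rpl7l1 (-0.63 by the mean and -2.18 on that dimmest probe set), Rpsa (-0.016 by the mean) and Hdac2 (-0.067, -0.019 and -0.067 without shared sequence, by the mean and on the dimmest). Rpl41 was at -0.0030 after quantile normalization but was called higher without shared sequence (0.33) and by the mean (0.11). Rps6kl1 was at -0.019 with array weights and between -0.034 and 0.11 when single arrays were left out, below 0 without deficient array 2 or 3 or control array 3. By the mean of its probe sets Rps9 lost its call (-0.068, limma adjusted p = 0.149). Deviations from the group mean were weakly correlated between same-numbered arrays of the groups (r = 0.0964, 0.0640 and -0.026). Between differently numbered arrays r ran from -0.103 to 0.030. With 3 arrays a group, such correlations cannot tell whether the numbers pair the arrays. A fit with the replicate number as a block gave 7 members, 3 small subunit genes and 1 biogenesis gene lower and 1 large subunit gene higher. The cause of these shifts was not tested. Signals near the top of the scale limit how far a difference between bright genes can be read.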

Other observations

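Ribosomal protein genes also appear on probe sets whose annotation lists several symbols, which were named for no gene here. Of 110 such probe sets with at least 1 ribosomal protein symbol, 37 were lower, 3 were higher and 70 did not pass the limma test, with a median log2 fold change of -0.074. At a mean of 13 or more stood 78 of them, of which 28 were lower and 1 was higher (range -0.40 to 0.17, median -0.087). Over all probe sets, 21% were lower and 18.8% higher. The 109 probe sets with a member's symbol alone had 26 lower, 9 higher and 74 that did not pass, and of the 63 at 13 or more, 15 were lower and 1 was higher.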
